A study of Homo sapiens with 6 samples.

Results

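The genes described here are the ZNF genes of 786-O cells that were expressed at a substantial level. They were chosen by name and level: a symbol made of ZNF and a number, with at most 1 letter after it, and a mean of at least 200 normalized counts over the libraries of the authors' fit. This rule took 115 of 407 ZNF genes, out of 11679 genes in the authors' deposited tables. The 786-O line derives from a human clear cell kidney cancer. The knockdown cells received ALYREF siRNA5 (2 libraries) or ALYREF siRNA8 (2 libraries), and the control cells received a non-targeting siRNA, called NTC (2 libraries). All 3 groups were transfected with the same reagent and were harvested at 48 h. ALYREF is an adaptor protein that loads onto messenger RNA in the nucleus and hands it to the export machinery. The libraries were made from polyadenylated RNA of whole cells of 1 cell line, so the values are steady-state RNA levels and not export. In such bulk RNA, fewer cells with a transcript and less of it per cell cannot be told apart.

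C2H2 zinc-finger proteins form the largest family of human transcription factors. Each finger is a short loop that holds a zinc ion and reads a few bases of DNA, and fingers are joined in arrays by a conserved linker. Many ZNF proteins also carry a KRAB domain at their start, which recruits the co-repressor TRIM28 and silences chromatin, often over transposable elements. A further group carries a SCAN domain, through which such proteins pair. Other proteins with a ZNF name bind RNA, act at the ribosome or carry no C2H2 finger at all.

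The conserved linker is the sequence most of these genes share, and it also shows how far their base composition differs. In GENCODE 29 coding transcripts (GRCh38), 357 linkers were found in 65 of the genes searched, with 301 different sequences. The first linker of 7 genes with large changes is given as 27 coding bases on the sense strand, with capitals for the 15 bases that encode the linker between the last residue of one finger and the first of the next. These genes lie on chromosomes 4 (ZNF721), 7 (ZNF107 and ZNF92), 16 (ZNF267 and ZNF768), 19 (ZNF358) and 12 (ZNF664).
ZNF721: catACTGGAGAGAAACCTtacaaatgt
ZNF107: catACTGGAGAAAAGCCCtacaaatgt
ZNF92: catACTGGAGAAAAACCCtacaaatgt
ZNF267: cacACTGGAGAGAAACCAtacaaatgt
ZNF358: cacAGCGGCGAGAAGCCGtaccgctgc
ZNF768: cacACCGGTGAGAAGCCCtacaaatgt
ZNF664: catACAGGTGAGAAACCGtatgtctgt
The linkers of ZNF107, ZNF92 and ZNF267 matched that of ZNF721 at 24, 25 and 25 of the 27 bases. The linker of ZNF358 matched it at 17 bases and held 19 G or C bases, against 10 in ZNF721. The most frequent linker, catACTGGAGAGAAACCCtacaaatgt, occurred 13 times in 6 of the genes: ZNF107, ZNF195, ZNF714, ZNF721, ZNF761 and ZNF92. These sequences describe the family and were not measured in the libraries.

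The 115 genes were expressed at moderate levels. Their mean normalized counts ran from 205 for ZNF689 to 2732 for ZNF207, with a median of 354, against a median of 459 over all genes in the authors' deposited tables. Together they held 0.450% of the summed gene means. Per kilobase of annotated exon the highest means were those of ZNF593, with 610 normalized counts per kilobase, and ZNF622, with 602, against a median of 63.8 over the 115 genes. Both encode factors of large ribosomal subunit maturation, and the exons of ZNF593 are overlapped along 100% of their length by annotated genes on the other strand. Just inside the limit were ZNF689, ZNF584 and ZNF212, with means of 204.7, 206.3 and 209.2 in the authors' deposited tables. Just outside were ZNF710, ZNF510 and ZNF121, with 198.8, 196.8 and 196.7 in the authors' deposited tables. The genes lie on many chromosomes, with 20 on chromosome 19, 14 on chromosome 7 and 11 on chromosome 16.

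The targeted gene fell with both siRNAs. In the authors' deposited tables, the log2 change of ALYREF against NTC was -4.14 (SE 0.096) with siRNA5 and -3.67 (SE 0.085) with siRNA8. The tables give 1 mean over the libraries of the fit and 1 fold change per siRNA, and values per library were not analysed here. A level in each group was therefore implied from the mean and both fold changes, on the assumption that the fit held these 6 libraries alone in 3 groups of equal size. For ALYREF the implied levels were 437 normalized counts with siRNA5, 604 with siRNA8 and 7711 with NTC. Implied levels carry no SD, and the error of each comparison is the standard error (SE) of its log2 fold change. Of 12 markers of renal tubule and renal carcinoma cells, 11 were in the tables, among them PAX8 with a mean of 2354 and PAX2 with a mean of 336 in the authors' deposited tables. Of 9 markers of leukocytes, endothelium, liver, muscle and neural crest, 1 was in the tables, CD68 with a mean of 202 in the authors' deposited tables.

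With siRNA5, many ZNF genes changed, in both directions. By the authors' deposited DESeq2 adjusted p-values under 0.05, 34 of the 115 genes were higher and 23 were lower than with NTC, and 58 were not called. That is 49.6% called, against 46.4% of all genes and 55.1% of the genes whose mean was 200 or more. The higher share was 29.6%, against 24.4% of all genes and 30.7% of genes whose mean was 200 or more, and the lower share was 20.0%, against 22.0% and 24.5%. These shares are near the background. The median log2 change was 0.05 over the 115 genes and 0.03 over all genes whose mean was 200 or more. Called ZNF genes had a median absolute log2 change of 0.53, or 1.45-fold, against 0.37, or 1.29-fold, over all called genes whose mean was 200 or more. The ZNF genes were measured less precisely, with a median mean of 354 against 797 and a median SE of 0.117 against 0.085. A larger SE asks for a larger change before a gene is called, so these 2 medians do not show a stronger response of ZNF genes.

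The limit on the mean favours genes that rose, because the mean includes the knockdown libraries. The implied NTC level of 14 of the 115 genes was under 200. Where the 200 was asked of the implied NTC level instead, an alternative chosen after seeing the data, it took 107 ZNF genes, of which 25 were higher and 28 lower with siRNA5. That limit in turn favours genes that fell. Over all 407 ZNF genes, with no limit, 75 were higher and 43 lower with siRNA5. The part of the limit in the balance of calls was not tested.

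**Figure D1:**
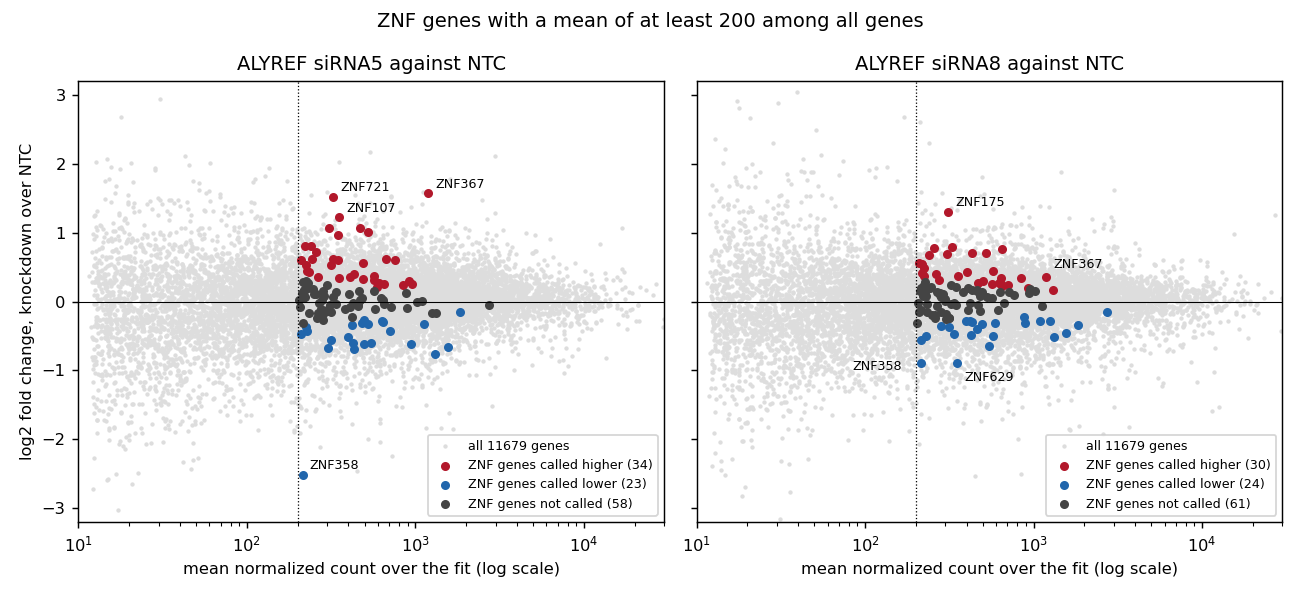
Mean normalized count (x axis, log scale) against the log2 fold change over NTC (y axis) for siRNA5 (left) and siRNA8 (right), with all genes in grey and the 115 ZNF genes in colour by their call. The dotted line marks the mean of 200, and 15 genes on the left and 17 on the right lie outside the axes. With siRNA5, 34 ZNF genes called higher reach means of 1193 and 23 called lower reach 1841, and with siRNA8 30 called higher reach 1303 and 24 called lower reach 2732.

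ZNF367, a C2H2 protein with 2 fingers found in its coding sequence, had the largest rise among the 115 genes with siRNA5. Its implied level was 2027 normalized counts with siRNA5, 870 with siRNA8 and 682 with NTC. This is 2.97-fold the NTC level with siRNA5 (log2 1.57, SE 0.068) and 1.28-fold with siRNA8 (log2 0.35, SE 0.072) in the authors' deposited tables. The gene was singled out with its rise known, so these values are a description with no test. Its mean of 1193 in the authors' deposited tables is far above the limit of 200, and none of its 42-base stretches occurs in transcripts of another gene.

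The next rises with siRNA5 were in genes of KRAB type with many fingers. ZNF721, with 23 fingers, had implied levels of 503 with siRNA5, 302 with siRNA8 and 175 with NTC. Its log2 change was 1.52 (SE 0.13, adjusted p = 1.86e-28) with siRNA5 and 0.79 (SE 0.14, adjusted p = 9.08e-08) with siRNA8, by the authors' deposited tables. ZNF107, with 16 fingers, had implied levels of 537 with siRNA5, 296 with siRNA8 and 229 with NTC. Its rise was 1.23 on the log2 scale (SE 0.12, adjusted p = 2.69e-23) with siRNA5 and 0.37 (SE 0.12, adjusted p = 0.00947) with siRNA8, by the authors' deposited tables. Both genes were highest with siRNA5, between with siRNA8 and lowest with NTC. ZNF92, a close relative of ZNF107 on the same chromosome, had implied levels of 410 with siRNA5, 313 with siRNA8 and 195 with NTC, and by the authors' deposited tables its log2 rises were 1.07 (SE 0.14) with siRNA5 and 0.68 (SE 0.14) with siRNA8. ZNF267 had implied levels of 683 with siRNA5, 550 with siRNA8 and 338 with NTC, and by the authors' deposited tables its log2 rises were 1.01 (SE 0.10) with siRNA5 and 0.70 (SE 0.10) with siRNA8.

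Large rises with siRNA5 were not limited to genes in which a KRAB domain was found. ZNF292, a large zinc-finger protein linked to neurodevelopmental disorders, had implied levels of 685 with siRNA5, 397 with siRNA8 and 328 with NTC. It rose by 1.06 (SE 0.10, adjusted p = 2.38e-23) with siRNA5 and by 0.28 (SE 0.11, adjusted p = 0.0267) with siRNA8, by the authors' deposited tables. ZNF646, with 30 fingers found, had implied levels of 519 with siRNA5, 255 with siRNA8 and 265 with NTC. It rose by 0.97 (SE 0.11, adjusted p = 1.12e-18) with siRNA5, while its value with siRNA8 was -0.06 (SE 0.11, adjusted p = 0.727), by the authors' deposited tables. Smaller rises with siRNA5 were those of ZNF714, by 0.81 (SE 0.14), and of ZNF407, by 0.80 (SE 0.13), as the authors' deposited table gives them. Their implied NTC levels were 169 and 165, so both pass the limit of 200 only through the knockdown libraries. In all, rises of at least 2-fold with siRNA5 were seen in 6 of the 115 genes, and a fall of that size in 1, against 0.856% of genes whose mean was 200 or more with such a rise and 1.46% with such a fall. ZNF721 and ZNF92, among the 6, pass the limit of 200 only through the knockdown libraries, so the count of rises is no support for a difference from the background.

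**Figure D2:**
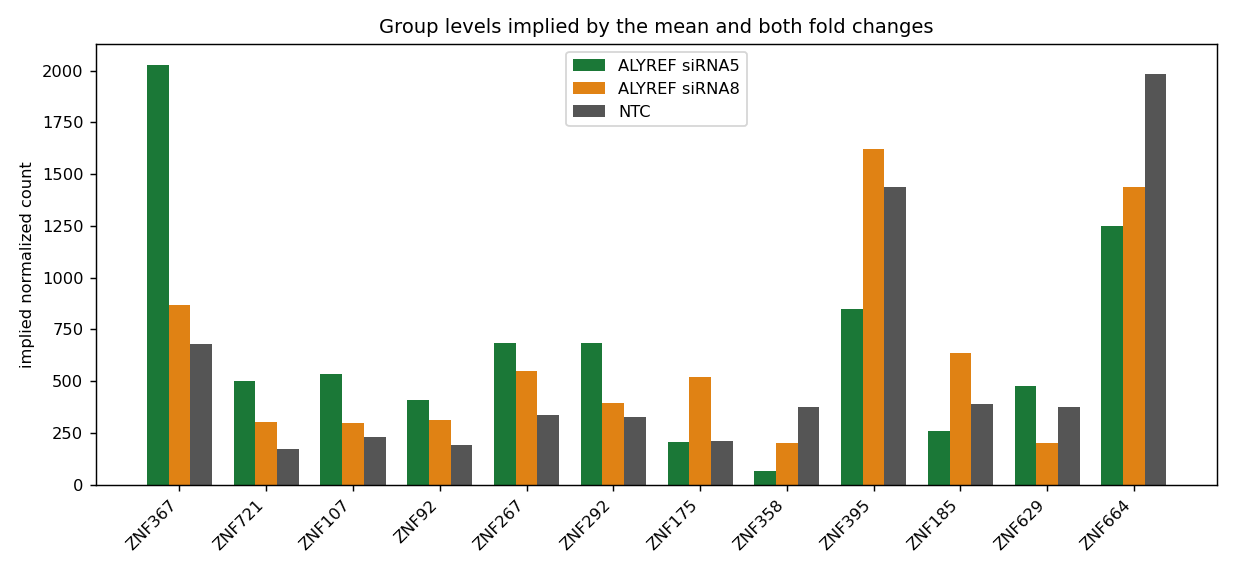
Implied normalized counts (y axis, from 0) of 12 ZNF genes with siRNA5, siRNA8 and NTC, 1 bar per group and no error bars, since no values per library were used. ZNF367, ZNF721, ZNF107, ZNF92, ZNF267 and ZNF292 are highest with siRNA5, ZNF175, ZNF395 and ZNF185 with siRNA8, and ZNF358 and ZNF664 with NTC.

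The deepest fall with siRNA5 was that of ZNF358. Its implied levels were 65.7 normalized counts with siRNA5, 203 with siRNA8 and 375 with NTC. This is 5.70-fold lower with siRNA5 (log2 -2.51, SE 0.19, adjusted p = 3.06e-36) and 1.85-fold lower with siRNA8 (log2 -0.89, SE 0.15, adjusted p = 1.51e-08), by the authors' deposited tables. Of its 42-base stretches, 19.9% also occur in transcripts of another gene, and 14.2% of its exon length is overlapped on the other strand. The part of these overlaps in the result was not tested. Its transcript is also among the richest in GC, at 69.1%.

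The other falls with siRNA5 were under 2-fold. ZNF395, a transcription factor induced by hypoxia in other cells, had implied levels of 848 with siRNA5, 1623 with siRNA8 and 1437 with NTC. It fell by 0.76 (SE 0.079, adjusted p = 2.67e-20) with siRNA5 by the authors' deposited table, and 41.8% of its 42-base stretches occur in transcripts of another gene. In the authors' deposited tables ZNF768, which binds a repeat-derived motif, had log2 changes of -0.69 (SE 0.11) with siRNA5 and -0.30 (SE 0.10) with siRNA8, both called. ZNF664, with implied levels of 1250 with siRNA5, 1439 with siRNA8 and 1983 with NTC, had log2 changes of -0.67 (SE 0.062) with siRNA5 and -0.46 (SE 0.061) with siRNA8, both called, by the authors' deposited tables. Its mean of 1557 in the authors' deposited tables was exceeded only by those of ZNF207 and ZNF106 among the 115 genes. By the same authors' deposited table ZNF623 fell by 0.67 (SE 0.13), ZNF672 fell by 0.62 (SE 0.10), ZNF608 fell by 0.61 (SE 0.086) and ZNF185 fell by 0.60 (SE 0.12).

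With siRNA8 the ZNF genes again changed in both directions. By the authors' deposited DESeq2 adjusted p-values, 30 of the 115 genes were higher and 24 were lower than with NTC, and 61 were not called. That is 47.0% called, against 41.5% of all genes and 49.3% of the genes whose mean was 200 or more. The higher share was 26.1%, against 21.0% and 26.1% in those backgrounds, and the lower share was 20.9%, against 20.5% and 23.3%. The median log2 change was 0.10, against 0.02 over genes whose mean was 200 or more, and called ZNF genes had a median absolute log2 change of 0.37, against 0.35 over all called genes of that level. Among the 107 genes with an implied NTC level of at least 200, 21 were higher and 28 lower with siRNA8. Both siRNA comparisons used the same NTC libraries, so a gene measured too high or too low there moves in both.

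The leading rise with siRNA8 was in a different gene. ZNF175, a KRAB gene also known as OTK18 and described as a repressor of HIV transcription in macrophages, had implied levels of 205 with siRNA5, 522 with siRNA8 and 211 with NTC. It was the only one of the 115 genes that rose by at least 2-fold with siRNA8 (0.745% of genes whose mean was 200 or more did), by 1.30 on the log2 scale (SE 0.13, adjusted p = 4.57e-22), and its value with siRNA5 was -0.04 (SE 0.14, adjusted p = 0.828), by the authors' deposited tables. ZNF697 rose by 0.76 (SE 0.094, adjusted p = 1.03e-14) with siRNA8 and by 0.25 (SE 0.097, adjusted p = 0.0243) with siRNA5, by the authors' deposited tables. ZNF185, an actin-associated LIM-domain protein in which no C2H2 finger was found, had implied levels of 258 with siRNA5, 636 with siRNA8 and 392 with NTC. It rose by 0.70 with siRNA8 (SE 0.11, adjusted p = 3.86e-10), by the authors' deposited table.

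The falls with siRNA8 were led by ZNF629 and ZNF358. ZNF629, with 19 fingers found, had implied levels of 475 with siRNA5, 202 with siRNA8 and 374 with NTC. It fell by 0.89 with siRNA8 (SE 0.13, adjusted p = 1.01e-10) and rose by 0.35 with siRNA5 (SE 0.12, adjusted p = 0.00859), by the authors' deposited tables. By the authors' deposited tables the log2 change of ZNF512 was -0.64 (SE 0.10) with siRNA8 and -0.59 (SE 0.10) with siRNA5, and 36.3% of its 42-base stretches occur in other transcripts. By the same authors' deposited table ZNF770 fell by 0.50 (SE 0.090), ZNF496, which has a SCAN domain, fell by 0.50 (SE 0.15) and ZNF544 fell by 0.49 (SE 0.12).

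**Figure D3:**
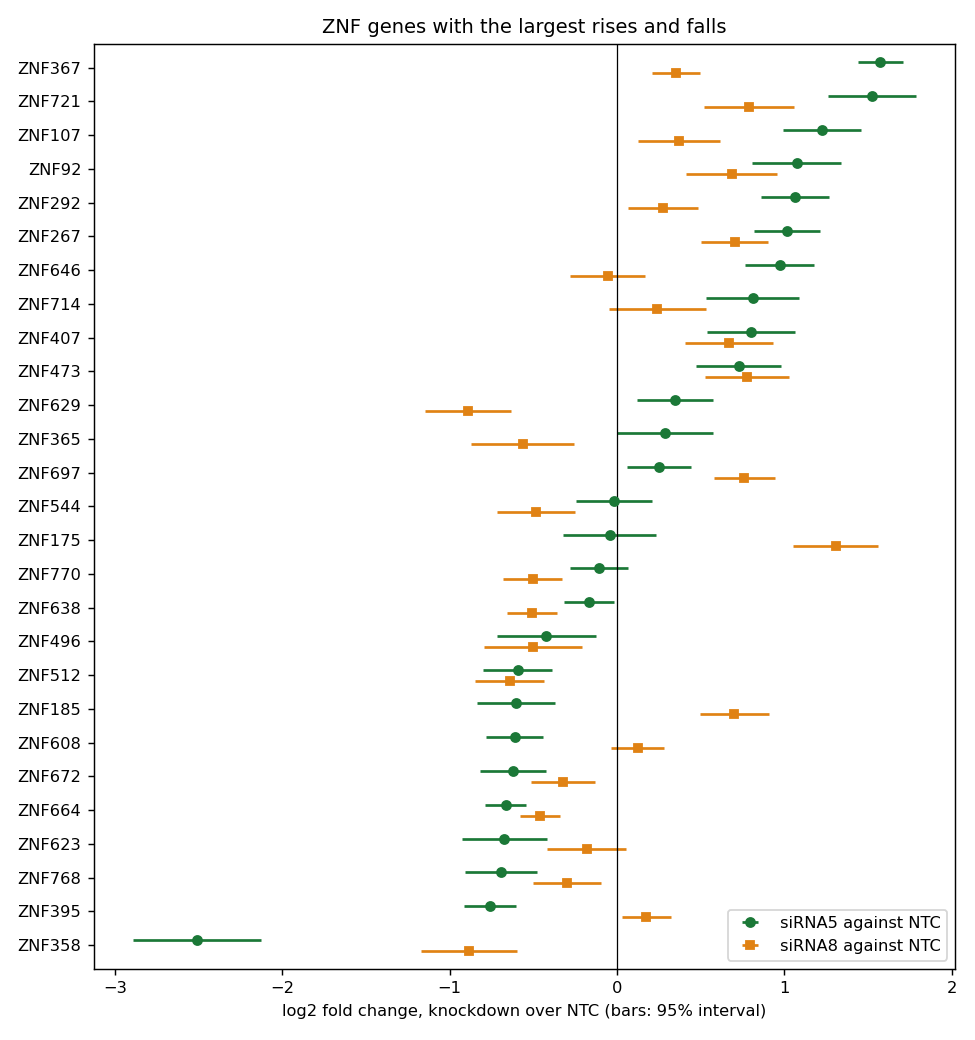
Log2 fold change over NTC (x axis) of the ZNF genes with the 8 largest called rises and the 8 largest called falls per siRNA (y axis), with siRNA5 as circles and siRNA8 as squares and bars for the 95% interval from the deposited standard error. ZNF721 and ZNF267 lie above 0 with both siRNAs and ZNF358, ZNF664 and ZNF512 below 0 with both, while ZNF175, ZNF185 and ZNF629 lie far apart with the 2 siRNAs.

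The siRNAs were then compared with each other, since both target ALYREF. The test took the difference of the log2 fold changes, siRNA5 over siRNA8, divided by an SE built from both deposited standard errors as if independent, with Benjamini-Hochberg adjustment over all 11679 genes. Of the 115 genes, 22 were higher and 13 were lower with siRNA5 than with siRNA8, and 80 were not called. That is 30.4% called, against 32.0% of all genes and 40.8% of genes whose mean was 200 or more. The higher share was 19.1%, against 17.2% and 22.2%, and the lower share was 11.3%, against 14.8% and 18.6%. The test is cautious, because its standard error counts the spread of the shared NTC libraries again for each siRNA. With the NTC variance rebuilt from the tables and removed, 33 were higher and 30 were lower.

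The largest differences were about 2-fold or more. ZNF629 was higher with siRNA5 than with siRNA8 by 1.24 on the log2 scale (SE 0.17, adjusted p = 3.6e-11). ZNF367 was higher by 1.22 (SE 0.099), given as a description. ZNF646 was higher by 1.03 (SE 0.16, adjusted p = 6.61e-10). The next were ZNF268, ZNF107 and ZNF365, with differences of 0.90 (SE 0.18), 0.86 (SE 0.17) and 0.85 (SE 0.22). In the other direction, ZNF358 was lower with siRNA5 than with siRNA8, at -1.62 (SE 0.24, adjusted p = 4.9e-10). ZNF175 differed by -1.35 (SE 0.19) and ZNF185 by -1.30 (SE 0.16), followed by ZNF395 at -0.94 (SE 0.11), ZNF608 at -0.73 (SE 0.12) and ZNF281 at -0.66 (SE 0.13).

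For several strongly changed genes no difference between the siRNAs was called. ZNF267 differed by 0.31 (95% interval 0.03 to 0.59, adjusted p = 0.0805) and ZNF92 by 0.39 (0.01 to 0.77, adjusted p = 0.112). ZNF407 differed by 0.13 (-0.24 to 0.50), ZNF473 by -0.05 (-0.41 to 0.30) and ZNF512 by 0.05 (-0.24 to 0.34). These intervals still allow differences of up to 0.50 on the log2 scale for ZNF407.

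**Figure D4:**
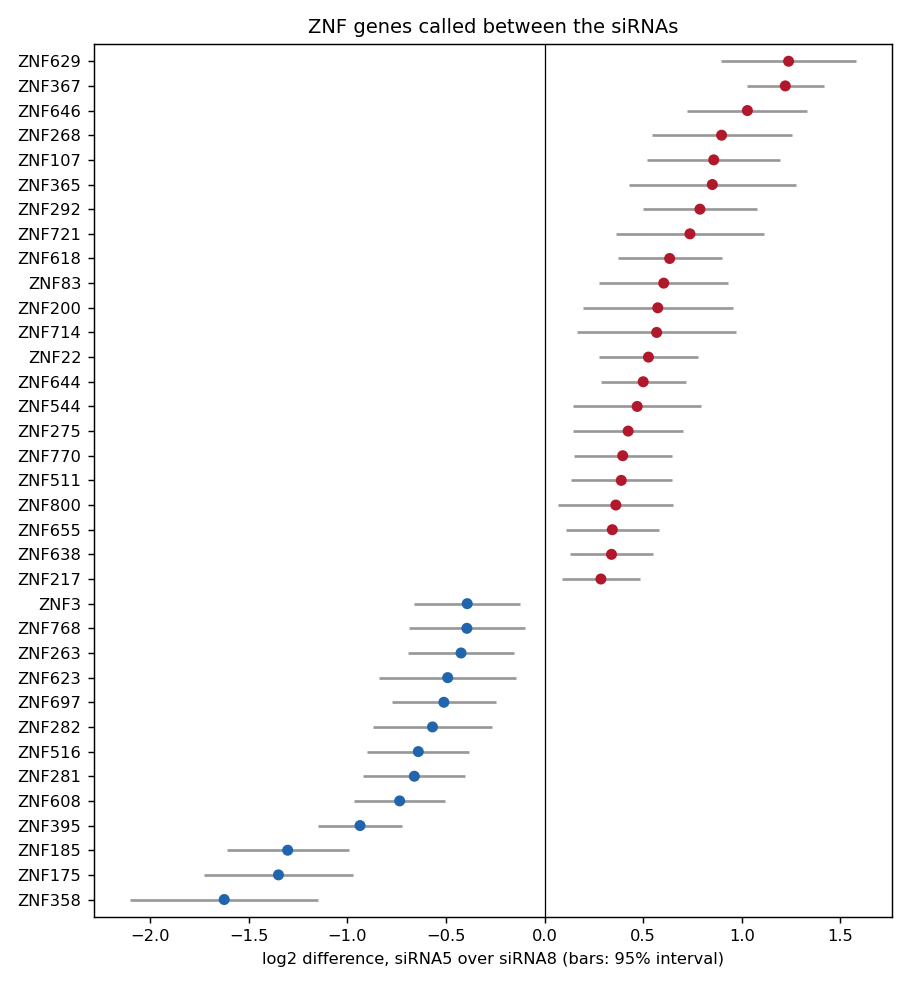
Log2 difference between siRNA5 and siRNA8 (x axis, positive where siRNA5 is higher) for the ZNF genes called in the direct comparison (y axis), with bars for the 95% interval. The 22 positive differences run up to 1.24 for ZNF629 and the 13 negative ones down to -1.62 for ZNF358.

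A first role is that of genes that act on RNA and ribosomes. Of the 10 genes with this role, 1 was higher and 1 lower with siRNA5, and 1 was higher and 4 were lower with siRNA8, by the authors' deposited adjusted p-values. Over all genes whose mean was 200 or more, 30.7% were higher and 24.5% lower with siRNA5, and 26.1% and 23.3% with siRNA8, and the difference from these shares was not tested. ZNF473, the U7 snRNP-associated protein of histone pre-mRNA processing, was the higher one, with implied levels of 293 with siRNA5, 303 with siRNA8 and 177 with NTC. Its log2 rise was 0.73 (SE 0.13, adjusted p = 1.52e-07) with siRNA5 and 0.78 (SE 0.13, adjusted p = 1.34e-08) with siRNA8, by the authors' deposited tables. ZNF106, an RNA-binding protein, fell by 0.15 (SE 0.061, adjusted p = 0.0309) with siRNA5 and fell by 0.35 (SE 0.061, adjusted p = 1.52e-07) with siRNA8, by the authors' deposited tables. ZNF638, a nuclear protein that brings silencing to unintegrated viral DNA, fell by 0.51 with siRNA8 (SE 0.077) and was at -0.17 with siRNA5 (SE 0.076, adjusted p = 0.0569), by the authors' deposited tables. By the authors' deposited siRNA8 table, ZNF598, the ubiquitin ligase that senses collided ribosomes, fell by 0.28 (SE 0.073), and the mitotic BUB3-binding protein ZNF207 fell by 0.15 (SE 0.061). Of the stretches of ZNF207, 19.8% occur in transcripts of another gene. ZNF622 and ZNF593, the ribosome maturation factors, stood at 0.15 (SE 0.073) and -0.05 (SE 0.11) with siRNA8 and were not called, by the authors' deposited table.

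Promoter and chromatin factors moved in both directions. Of 14 such genes, 5 were higher and 3 lower with siRNA5, and 7 were higher and 2 lower with siRNA8, by the authors' deposited adjusted p-values. That is 57.1% called with siRNA5 and 64.3% with siRNA8, against 55.1% and 49.3% of genes whose mean was 200 or more. With siRNA5 the rises beside ZNF292 included ZNF644, a partner of the H3K9 methyltransferases G9a and GLP, by 0.60 (SE 0.077), and ZNF384, a factor fused in acute leukaemia, by 0.37 (SE 0.089), in the authors' deposited table. ZNF281, a cofactor of MYC and pluripotency factors, fell by 0.42 with siRNA5 (SE 0.096, adjusted p = 4.58e-05) and rose by 0.24 with siRNA8 (SE 0.090, adjusted p = 0.0241), by the authors' deposited tables. ZNF516, an activator of brown fat genes, likewise fell by 0.30 with siRNA5 (SE 0.096) and rose by 0.34 with siRNA8 (SE 0.091) in the authors' deposited tables. ZNF687 fell by 0.31 with siRNA5 (SE 0.11), and with siRNA8 ZNF609, a partner of the cohesin loader and Integrator, fell by 0.31 (SE 0.077) and the breast cancer oncogene ZNF217 fell by 0.28 (SE 0.072), as the authors' deposited tables give them. ZNF462, the gene with most fingers found, 33, rose by 0.27 with siRNA8 (SE 0.089), by the authors' deposited table.

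Of the 3 genes listed for SUMO ligation and genome stability, 1 was called with each siRNA. Over genes whose mean was 200 or more, 55.1% were called with siRNA5 and 49.3% with siRNA8. ZNF451, a SUMO ligase, rose by 0.32 with siRNA5 (SE 0.11, adjusted p = 0.00682), by the authors' deposited table. ZNF365, linked to telomere and fork stability, fell by 0.56 with siRNA8 (SE 0.16, adjusted p = 0.00144), by the authors' deposited table. Of its 42-base stretches, 28.1% occur in transcripts of another gene.

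Protein architecture was read from translated GENCODE 29 coding transcripts, with the C2H2 pattern for fingers and loose patterns for the KRAB and SCAN domains. A domain with no match may still be there, and a match may lie in a protein without the domain. The KRAB pattern also matched in 36 of 10384 coding genes without a ZNF name and with under 3 fingers. Genes with the pattern are called KRAB genes here. A KRAB pattern was found in 39 of the 115 genes, fingers without it in 70 and no finger in 6, of which ZNF271P and ZNF702P are annotated as pseudogenes with no coding transcript to search, and the median number of fingers was 9. Of the 39 KRAB genes, 10 were higher and 4 lower with siRNA5, and 11 were higher and 7 lower with siRNA8, by the authors' deposited adjusted p-values. That is 35.9% called with siRNA5 and 46.2% with siRNA8, against 55.1% and 49.3% of genes whose mean was 200 or more, and the difference was not tested. Among the 10 higher with siRNA5, ZNF250, ZNF473, ZNF721, ZNF791 and ZNF92 had an implied NTC level under 200 and so were admitted by their rise. Of the 70 genes with fingers and no KRAB pattern, 23 were higher and 17 lower with siRNA5, and 17 were higher and 16 lower with siRNA8, or 57.1% and 47.1% called. The medians of the log2 change with siRNA5 were 0.06 and 0.02 for the KRAB genes and the others, and 4 of the 6 rises of at least 2-fold are in KRAB genes, of which 2 had an implied NTC level under 200 and so were admitted by their rise. Genes with 10 or more fingers were called higher in 19 of 49 cases and lower in 6 with siRNA5, with a median log2 change of 0.15, or 51.0% called. Those with 1 to 9 fingers were called higher in 14 of 60 cases and lower in 15, with a median of -0.06, or 48.3% called. With siRNA8 the medians were 0.13 and 0.06. Among the 19, ZNF250, ZNF407, ZNF473, ZNF714, ZNF721, ZNF791 and ZNF92 had an implied NTC level under 200. Among the 14 with fewer fingers, ZNF652 did. These genes were admitted by their rise, and the part of the limit on the mean in these counts was not tested. On chromosome 19, which holds large clusters of KRAB genes, 4 of 20 genes were higher and 4 lower with siRNA5, and 5 were higher and 4 lower with siRNA8. That is 20% higher and 20% lower with siRNA5, and 25% and 20% with siRNA8. Over genes whose mean was 200 or more, 30.7% were higher and 24.5% lower with siRNA5, and 26.1% and 23.3% with siRNA8. The difference was not tested.

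GC content moved with the change with siRNA5, and less with siRNA8. The median GC content of the transcript was 42.2% in the 34 ZNF genes called higher with siRNA5 and 53.0% in the 23 called lower, with 44.9% in those not called. Over all genes whose mean was 200 or more the same medians were 44.2%, 52.7% and 48.4%. With siRNA8 the medians in the ZNF genes lay close together, at 44.9% in those called higher, 45.3% in those called lower and 47.4% in those not called. Across the 115 genes, Spearman's rho between GC content and the log2 change was -0.36 with siRNA5 and -0.23 with siRNA8, against -0.29 and -0.13 over 7978 genes whose mean was 200 or more. These are descriptions across genes, which share libraries and are not independent replicates. Of the 57 genes with the lower GC content, 21 were higher and 6 lower with siRNA5, and of the other 58, 13 were higher and 17 lower. Among the 21, ZNF250, ZNF652, ZNF702P, ZNF714, ZNF721, ZNF791 and ZNF92 had an implied NTC level under 200. Among the 13 higher ones, ZNF407 and ZNF473 did. These genes were admitted by their rise. The part of the limit on the mean in these counts and in the medians by call was not tested. With siRNA8, 17 of the 57 were higher and 13 lower, and 13 of the 58 were higher and 11 lower. Over all genes whose mean was 200 or more, 30.7% were higher and 24.5% lower with siRNA5, and 26.1% and 23.3% with siRNA8. Many-fingered genes are also poorer in GC, with a median of 44.5% for 10 or more fingers and 48.1% for 1 to 9, so finger number and GC content cannot be told apart in these counts. The part of base composition in the results was not tested.

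**Figure D5:**
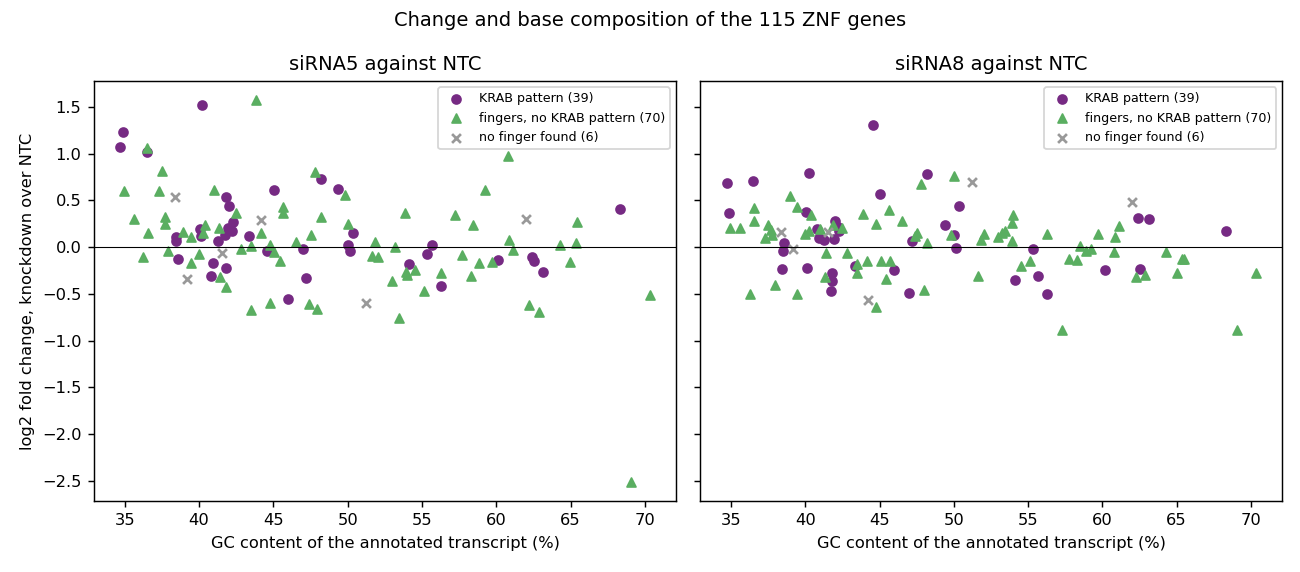
GC content of the annotated transcript (x axis, percent) against the log2 fold change over NTC (y axis) of the 115 ZNF genes for siRNA5 (left) and siRNA8 (right), by protein pattern. With siRNA5 the larger rises lie mostly at low GC content and ZNF358 at 69.1% is the lowest point, with a Spearman rho of -0.36 across the genes, and with siRNA8 the rho is -0.23.

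Related genes outside the set also changed in both directions. Of 85 other genes with at least 3 C2H2 fingers and a mean of at least 200, which carry other names, 33 were higher and 10 lower with siRNA5, and 28 were higher and 15 lower with siRNA8, by the authors' deposited adjusted p-values. With siRNA5 that is 38.8% higher and 11.8% lower, and with siRNA8 32.9% and 17.6%, beside the shares of 30.7%, 24.5%, 26.1% and 23.3% over genes whose mean was 200 or more. The median log2 changes of these genes were 0.11 and 0.10, against 0.05 and 0.10 in the 115 ZNF genes, and the difference between the sets was not tested. Of 19 KRAB co-repressors, the partners through which KRAB proteins act, 9 were higher and 1 was lower with siRNA5, and the median log2 change was 0.13. With siRNA8, 4 were higher and 4 lower, with a median of 0.06. The co-repressors were thus called in 52.6% of cases with siRNA5 and 42.1% with siRNA8. Over genes whose mean was 200 or more these shares were 55.1% and 49.3%. By direction, 47.4% were higher and 5.26% lower with siRNA5, against 30.7% and 24.5% of those genes. With siRNA8, 21.1% were higher and 21.1% lower, against 26.1% and 23.3%. The levels are unlike, with a median mean of 1989 against 797, and DNMT3A, higher with siRNA5, had a mean of 62.3. The difference was not tested. TRIM28, the scaffold that KRAB binds, rose by 0.16 (SE 0.045, adjusted p = 0.00151) with siRNA5 and stood at 0.01 (SE 0.045) with siRNA8, by the authors' deposited tables. ATF7IP, a partner of the methyltransferase SETDB1, rose by 0.62 (SE 0.089) with siRNA5 and by 0.35 (SE 0.090) with siRNA8, by the authors' deposited tables. The heterochromatin protein CBX5 rose by 0.45 (SE 0.049) with siRNA5 and by 0.46 (SE 0.049) with siRNA8, by the authors' deposited tables. SMARCA5, a remodelling ATPase, rose by 0.13 with siRNA5 (SE 0.051) and fell by 0.58 with siRNA8 (SE 0.052) in the authors' deposited tables.

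Many ZNF genes arose by duplication, and reads of 42 bases can fit several of them. A stretch counted as shared if any other annotated gene held it, also where that gene overlaps at the same place. Duplication and overlapping annotation were not told apart. Of the 115 genes, 55 shared no 42-base stretch with transcripts of another gene and 16 shared at least 10%, up to 98.4% for ZNF23, and the sources used here do not give how such reads were counted. Among the 99 genes that shared under 10%, a split chosen after seeing the data, 31 were higher and 20 lower with siRNA5, and 25 were higher and 20 lower with siRNA8. The exons of 37 genes are overlapped by a gene on the other strand, 17 of them along at least 10% of their length. The libraries were directional, but the sources used here do not give whether reads were counted by strand, so values of such genes are uncertain.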

How the data were processed

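Polyadenylated RNA of 786-O cells was sequenced in 6 libraries, 2 each for ALYREF siRNA5, ALYREF siRNA8 and NTC. Tools named in the submitters' processing notes are STAR, Picard, HTSeq and DESeq2, with no version given, and the build is hg19. Per the file headers, the 2 deposited tables give for each of 11679 genes a signal, the mean of normalized counts over all libraries in the authors' fit, and they hold 2 HTSeq counter rows as well, which made up 7.85% of the summed means and were left out. The authors gave fold changes and their standard errors as log2 values, with a Wald score; whether they were shrunk is not stated. The authors' deposited p-values, adjusted by Benjamini-Hochberg, were used as they stand at a threshold of 0.05. The sources used here do not give the depth per library. The labels do not say whether duplicates came from separate cultures, so p-values may reflect technical spread alone.

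The difference between the siRNAs was computed and adjusted over all genes with Python 3.11.15, pandas 2.3.3 and scipy 1.17.1, and that step was tested on simulated data. Gene structure, GC content and protein patterns came from GENCODE 29 (GRCh38), in which all 115 genes were found. Linkers were counted with the genes of chromosome 8 left out, and KRAB patterns were sought in the first 300 residues of every coding transcript. No coordinates are given, because the builds differ.

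Named genes are ZNF367, the 8 largest called rises and falls per siRNA, the 6 largest called differences each way between the siRNAs, the 6 highest means, the 3 genes on each side of the limit of 200, and up to 3 rises and 3 falls per role list, in all 43 of the 115 genes. ALYREF is also named, with TRIM28 and some of the 3 largest called rises and falls of the KRAB co-repressors per siRNA. CBX1, CHD4, DNMT1 and MORC2 were picked by the same rule and are not described. The genes, lists and rules were chosen with earlier results of these data known. Splits by finger number and GC content, and genes of the role lists beyond this rule, were chosen after their values were seen. So were the genes named for an implied NTC level under 200. Alternatives were a threshold of 0.01, a mean of at least 500, all ZNF genes, centred fold changes, adjustment over genes above the limit of 200, and a rebuilt NTC variance.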

Additional observations from a re-analysis of the deposited data

Results flagged for a closer look

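Of the 115 ZNF genes, 8 were called in opposite directions with the 2 siRNAs against NTC, and the difference itself was called as well. How many of all genes were called in this way was not counted, so no excess among ZNF genes is implied. ZNF629 was higher with siRNA5 than with siRNA8 by 1.24 on the log2 scale, ZNF268 by 0.90 and ZNF22 by 0.53. ZNF185 differed by -1.30, ZNF395 by -0.94, ZNF281 by -0.66, ZNF516 by -0.64 and ZNF282 by -0.57, each lower with siRNA5. At a threshold of 0.01, 3 of the 8 kept their calls with both siRNAs: ZNF185, ZNF516 and ZNF629. ZNF268, ZNF281 and ZNF395 lost the call with siRNA8, ZNF22 the one with siRNA5 and ZNF282 both. ZNF395 shares 41.8% and ZNF268 shares 7.55% of its 42-base stretches with other transcripts, and 45.3% of the exon length of ZNF22 is overlapped on the other strand. Both comparisons use the same NTC libraries, and the difference between the siRNAs does not depend on them.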

How the results depend on the processing

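No paired analysis was possible because the deposited tables hold no values per library, and for the same reason no replicate could be left out. Among the values of named genes, that of ZNF217 with siRNA5, not called, changed sign on centring, from 0.0070 to -0.0028. The balance of calls turned over where the limit of 200 was put on the implied NTC level, which favours genes that fell. With that limit, 25 genes were higher and 28 lower with siRNA5, and 21 and 28 with siRNA8. With a mean of at least 500, 12 ZNF genes were higher and 10 lower with siRNA5, 13 and 11 with siRNA8, and 9 and 7 between the siRNAs, of 35 genes. Over all 407 ZNF genes, 75 were higher and 43 lower with siRNA5, 56 and 47 with siRNA8, and 34 were higher and 16 lower with siRNA5 than with siRNA8. These counts differ because fewer or more genes were tested. At a threshold of 0.01, 19 genes were higher with siRNA8 and 14 were higher with siRNA5 than with siRNA8. With the NTC variance rebuilt, 30 genes were lower with siRNA5 than with siRNA8, against 13, because the standard error is smaller. Of the values of single genes, 17 lost their call at a threshold of 0.01, and 148 kept their side of it. Centring on the median of all genes, a shift of 0.01 or less on the log2 scale, left 162 values on their side, 2 gained a call and 1 lost it. Adjusting over genes above the limit of 200 added 3 calls among 153 values. Precision was lower at low means: the median SE with siRNA5 was 0.24 for ZNF genes under 200 and 0.12 for the 115 genes.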

Other observations

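Among the 292 ZNF genes with a mean under 200, medians differed in sign between protein types. Of 221 with a KRAB pattern, 33 were higher and 10 lower with siRNA5, and 24 were higher and 11 lower with siRNA8, by the authors' deposited adjusted p-values, with a median log2 change of 0.15 with each siRNA. Of 61 with fingers and no KRAB pattern, 7 were higher and 10 lower with siRNA5, and 1 was higher and 11 were lower with siRNA8, with medians of -0.18 and -0.10. Over all genes, 24.4% were higher and 22.0% lower with siRNA5, and 21.0% and 20.5% with siRNA8. Both types lay below these shares in each direction with each siRNA. All genes had a median mean of 459, against means under 200 here, and a background of like level was not compared. The difference between the types was not tested. Their median GC content was 42.2% with a KRAB pattern and 52.3% without, and across the 292 genes Spearman's rho between GC content and the log2 change was -0.47 with siRNA5 and -0.28 with siRNA8, so protein type and base composition cannot be told apart here.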
